A study of Mus musculus with 2 samples.

Results

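The metallothionein genes Mt1 and Mt2 and the genes of 8 antioxidant enzymes were compared between 2 clones of mouse mesoangioblasts. The enzymes are the glutathione peroxidases Gpx1, Gpx3 and Gpx4, the superoxide dismutases Sod1, Sod2 and Sod3, catalase (Cat) and haem oxygenase 1 (Hmox1). These 10 genes, of 8251 genes on the array, were chosen by name with earlier results of the same arrays known, so every ratio given for them is a description. Mesoangioblasts are vessel-associated progenitor cells of the embryonic aorta. The clones, D16 and D351, were both started from C57BL6 embryos of embryonic day 9.5, whose dorsal aorta was kept as an explant for 5 days. Single cells were then cloned on a feeder layer of primary embryonic fibroblasts arrested with Mitomycin C, in RPMI medium with 20% fetal calf serum, and expanded on gelatin. No treatment or genetic change is labelled for either clone. Each group is a single clone measured on 1 Affymetrix U74A array, so there is no test, and differences between clones, cultures and arrays cannot be told apart.

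Metallothioneins are small cysteine-rich proteins that bind zinc, copper and cadmium, and their genes are induced by metals through the zinc-sensing transcription factor MTF1, which binds metal response elements. Superoxide dismutases turn superoxide into hydrogen peroxide, in the cytosol (Sod1), in mitochondria (Sod2) or outside the cell (Sod3). Catalase in peroxisomes and the glutathione peroxidases then break down peroxide. Gpx1, Gpx3 and Gpx4 are selenoproteins: Gpx1 works inside cells, Gpx3 is secreted, and Gpx4 reduces lipid peroxides in membranes. Hmox1 degrades haem, and its gene is a classic target of the oxidant-sensing factor NRF2 and its antagonist BACH1.

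Mt1 and Mt2 differed between the clones in the same direction, and the bases around their annotated starts are shown because both hold the core of the metal response element. The sequences are from RefSeq on mouse build GRCm38.p6, plus strand, written 5′ to 3′. The first line for each gene gives the 250 bases before the annotated start, and the second gives the 30 bases from the start on. For Mt1, the RefSeq gene table begins the gene further upstream, inside the first line, so the start used here is 1 of at least 2 annotated and the positions below hold for it alone. Capitals mark matches to TGCACNC or TGCGCNC on either strand.
Mt1, chr8:94178839-94179088: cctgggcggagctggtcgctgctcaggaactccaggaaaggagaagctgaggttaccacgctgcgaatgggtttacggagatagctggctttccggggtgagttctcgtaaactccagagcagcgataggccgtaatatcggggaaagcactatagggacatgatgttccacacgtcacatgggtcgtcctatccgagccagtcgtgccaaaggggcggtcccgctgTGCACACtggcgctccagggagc
Mt1, chr8:94179089-94179118: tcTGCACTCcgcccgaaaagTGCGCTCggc
Mt2, chr8:94172368-94172617: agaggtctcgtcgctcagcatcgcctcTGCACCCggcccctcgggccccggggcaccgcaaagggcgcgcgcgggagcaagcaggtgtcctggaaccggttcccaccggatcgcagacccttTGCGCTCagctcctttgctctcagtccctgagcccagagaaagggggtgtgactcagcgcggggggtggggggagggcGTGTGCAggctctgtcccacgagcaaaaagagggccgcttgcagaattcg
Mt2, chr8:94172618-94172647: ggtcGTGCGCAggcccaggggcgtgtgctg

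The window of 300 bases, 250 before and 50 after the start, held 3 matches in Mt1 and 4 in Mt2. In Mt1 they began, relative to the start used here and counting it as 1, at -23, 3 and 21. A window placed on another start, upstream or downstream, could hold another number. Where Mt1 transcripts begin in these cells was not tested, so these positions do not show whether a match lies inside the transcript. In Mt2 they began at -223, -128, -50 and 5, the last 2 on the minus strand. Of 32851 such windows in the RefSeq table, 25.7% held at least 1 match, 1.97% at least 3 and 0.518% at least 4. Windows were found for 8 of the 10 genes; Sod3 and Hmox1 had no entry. The windows of Gpx1, Gpx3, Gpx4 (4 annotated starts), Sod1, Sod2 and Cat held 0 matches to the metal response core.

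The core of the antioxidant response element, to which NRF2 binds, was searched as TGACNNNGC on both strands. It occurred once in Mt2 (first base at -79) and once in Sod1 (at -56, minus strand), and in 12.4% of all windows. The GC box GGGCGG, also on both strands, was found in 35.7% of all windows. There were 4 in Sod1, 4 in Sod2, 3 in Mt1, and 1 each in Gpx1, Gpx3 and Cat, while the windows of Gpx4 held 0, 2, 2 and 1. Overlapping matches were counted separately, and the minus-strand GC box of Mt1 that starts at position 9 shares a base with the metal response match before it. The E box CACGTG, present in 7.15% of all windows, had 0 matches in any of these genes. A match is a run of letters and says nothing of binding.

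Levels are array intensities after the arrays were scaled to one median, and values under an intensity floor of 17.4 are not ranked. A gene is called measured where at least 1 clone reaches the floor. All 10 genes reached it in both clones, as did 5202 genes in all. The share of probe sets that reached it was 60.6% in D16 and 59.4% in D351. As a measure of RNA integrity, the 3' probe set of Actb was 1.81 times as bright as its 5' probe set in D16 and 1.37 times in D351, and that of Gapdh 1.56 and 1.44 times. The one error these data allow is how far probe sets of the same gene disagree. Its SD, over 808 genes, was 0.52 in log2 units, and it does not include the spread between cultures. In these bulk samples, fewer cells of a type and less RNA per cell cannot be told apart.

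A gene is called D351-high or D16-high here where that clone's level was 2-fold or more above the other's. Of the 10 genes, 1 was D351-high (Gpx3) and 3 were D16-high (Mt1, Mt2 and Sod2). Of all 6101 measured genes, 10.6% were D351-high and 8.83% were D16-high, which adds up to 19.4%. These are the shares to set beside every list count below. Since the 10 genes were chosen with this contrast known, nothing is read from their count. Their median log2 ratio of D351 over D16 was -0.36, against -0.03 for all genes.

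**Figure D1:**
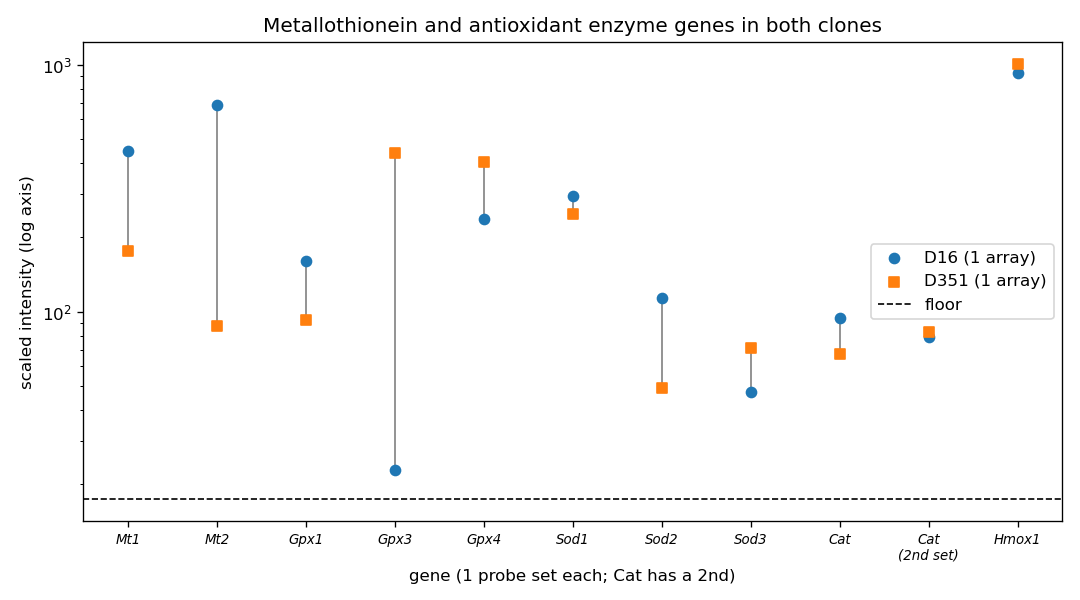
Scaled array intensity (log axis) of every probe set of the 10 genes in clone D16 (circles) and clone D351 (squares), 1 array each, with the floor as a dashed line. Mt2 is at 689 in D16 and 87.1 in D351, Gpx3 at 22.9, just above the floor, and 438, while Hmox1 is nearly level.

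Both metallothionein genes had the higher level in D16. Mt2 measured 689 in D16 and 87.1 in D351, a log2 ratio of -2.98 or 7.91-fold. Among the 5202 genes measured in both clones, this ratio was the 8th from the D16 end. Mt1 measured 446 in D16 and 176 in D351, 2.53-fold higher in D16 (log2 ratio -1.34). The ratios of the pair were not equal: the log2 ratio of Mt2 minus that of Mt1 was -1.64. That difference does not depend on a single factor that scales the arrays against each other, and the probe set spread for a difference between 2 genes is 0.74. Mt1 and Mt2 encode closely similar proteins, and how far their probe sets share targets was not tested.

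Of the other metallothionein genes of the cluster on chromosome 8, Mt3 did not show this difference and Mt4 could not be compared. Mt3, the form known from brain, lies next to Mt2 and measured 150 in D16 and 133 in D351 (log2 ratio -0.17). Mt4, known from stratified epithelia, was below the floor in both clones. Beyond them on the array, the RNA processing gene Nudt21 had a log2 ratio of -0.81. On the other side were the nuclear pore gene Nup93 (-0.34), Slc12a3 (below the floor in both) and the endoplasmic reticulum stress gene Herpud1 (-0.70). Each of these 4 measured neighbours was within 2-fold, though all had the sign of Mt1 and Mt2. Neighbours were looked up after the values of Mt1 and Mt2 had been seen.

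Genes of zinc and copper handling were counted as a list without Mt1 and Mt2. Of 17 measured, 1 was D351-high and 3 were D16-high, and the median log2 ratio was -0.22. Mtf1, the factor that reads zinc, measured 50.5 in D16 and lay just under the floor in D351, which makes it at least 2.90-fold higher in D16. The zinc exporter gene Slc30a4 measured 478 in D16 and 133 in D351, a 3.61-fold difference. Slc30a1, the zinc exporter gene that MTF1 is known to induce together with the metallothioneins, was below the floor in both clones (named after its value was seen). A level below the floor does not show whether the gene is off. Any part of zinc or MTF1 in the difference of Mt1 and Mt2 was not tested. The copper oxidase gene Cp, ceruloplasmin, was at 147 in D16 and below the floor in D351, at least 8.45-fold higher in D16. The copper transporter gene Atp7a went the other way, at 39.4 and 151, 3.82-fold higher in D351. A second probe set of Atp7a gave the same direction, with a log2 ratio of at least 2.66.

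The glutathione peroxidase genes were not uniform. Gpx3, the secreted form, measured 22.9 in D16 and 438 in D351, 19.1-fold higher in D351 (log2 ratio 4.26). It ranked 7th from the D351 end of the 5202 genes. The D16 level is only 1.32 times the floor, so the size of the ratio rests on a value near it. With the floor at the 60th percentile of all values the ratio is a bound of at least 8.23-fold, and with 16 added to every value it is 11.7-fold. Gpx3 has a single probe set on the array.

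Gpx4, the lipid peroxide form, measured 237 in D16 and 402 in D351 (1.70-fold higher in D351), and Gpx1, the cytosolic form, 161 and 92.5 (1.74-fold higher in D16). Both are within 2-fold, and they lie on opposite sides of equality in every setting tried. The log2 ratio of Gpx4 exceeded that of Gpx1 by 1.56, and that of Gpx3 exceeded those of Gpx4 and Gpx1 by 3.50 and 5.06, against a spread of 0.74 for such a difference. Gpx4 has processed copies in the genome, and whether its probe set reads them was not tested.

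The nearest genes of the array on either side of Gpx3 on chromosome 11 were within 2-fold, except Il3, which has only a bound. On one side, Hint1 measured 2145 in D16 and 1959 in D351, and Cdc42se2 had a log2 ratio of -0.76. Il3 was just above the floor in D16 and below it in D351. On the other side, the NF-kappaB inhibitor gene Tnip1, which lies next to Gpx3, measured 125 and 128, and the annexin gene Anxa6 594 and 701. The lysosomal activator gene Gm2a had a log2 ratio of -0.99. These neighbours were also chosen after the value of Gpx3 was seen.

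Among other glutathione peroxidases and selenoproteins, 12 genes were measured, of which 1 was D351-high and 0 were D16-high, and the median log2 ratio was -0.05. The single gene was Gpx7, a peroxidase of the endoplasmic reticulum, which did not reach the floor in D16 and measured 48.5 in D351, a difference of at least 2.79-fold. Outside the rule for naming, Gpx2, the form of the gut epithelium, measured 39.5 in D16 and 26.6 in D351, and Gpx5, of the epididymis, was below the floor in both.

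The superoxide dismutases also differed among themselves. Sod2, the mitochondrial manganese enzyme, measured 114 in D16 and 49.0 in D351, 2.33-fold higher in D16 (log2 ratio -1.22). Sod1, the cytosolic copper and zinc enzyme, measured 293 and 249, a log2 ratio of -0.24, smaller than the probe set SD of 0.52. Sod3, the extracellular enzyme, measured 47.2 and 71.2, 1.51-fold higher in D351 (log2 ratio 0.60). The log2 ratio of Sod3 exceeded that of Sod2 by 1.81 and that of Sod1 by 0.83. Ccs, the copper chaperone that loads Sod1, measured 100 in D16 and 148 in D351, with log2 ratios of -0.52 and at most -0.65 for its other probe sets (named after its values were seen).

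Catalase and haem oxygenase 1 had the smallest differences beside Sod1. Cat is the one gene of the 10 with 2 probe sets. The brighter, of a kind that can match other transcripts, measured 94.1 in D16 and 67.5 in D351 (log2 ratio -0.48), and the other 78.7 and 82.6 (0.07). The direction of Cat is therefore unsettled. Hmox1 measured 929 in D16 and 1004 in D351, 1.08-fold apart (log2 ratio 0.11). For Sod1, Cat and Hmox1 the log2 ratio was smaller than the SD between probe sets.

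**Figure D2:**
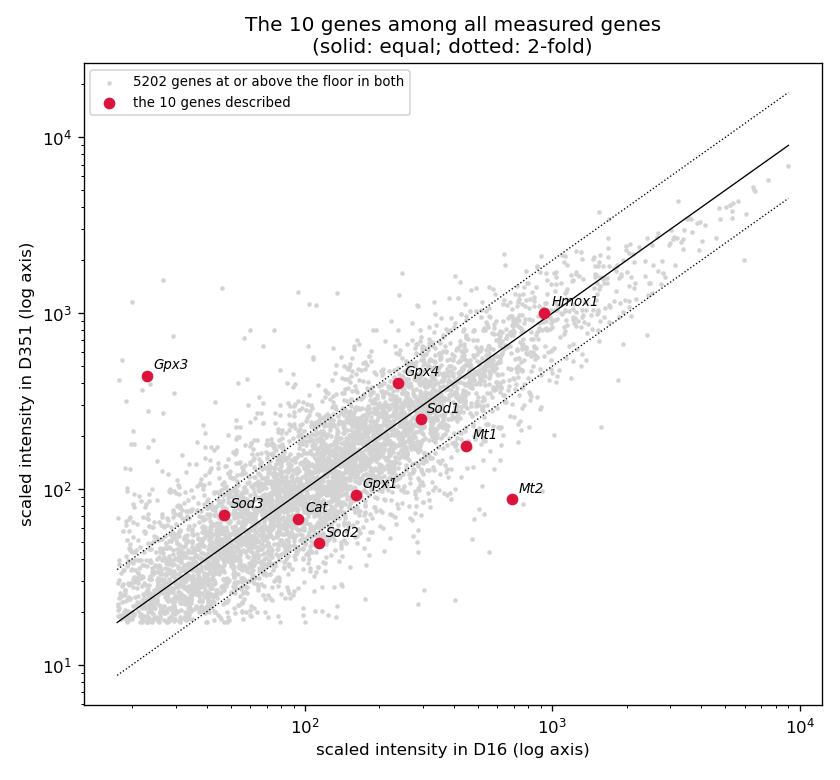
Scaled intensity in D16 against D351 (both log axes) for the 5202 genes that reached the floor in both clones (grey), with the 10 genes in red, the line of equality (solid) and 2-fold (dotted). Gpx3 lies far above the upper dotted line, Mt2 far below the lower, with Mt1 and Sod2 nearer to it and the other 6 between the lines.

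Set out by the place where the proteins work, the groups were mixed. The secreted enzymes Gpx3 and Sod3 had positive log2 ratios (4.26 and 0.60). Of those inside the cell, Sod2, Gpx1 and Sod1 had negative ones (-1.22, -0.80 and -0.24), where Sod1 turned to 0.15 when hybridization controls set the scale. Gpx4 and Hmox1, also inside the cell, had positive ones (0.76 and 0.11), and the 2 probe sets of Cat had opposite signs (-0.48 and 0.07). This grouping was made after the values were seen.

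Scaling decides some of these calls. The 9 controls added at hybridization had a median log2 ratio of -0.39. Scaling on them instead of on all probe sets raised the ratio of each probe set above the floor in both clones by 0.39. With that scaling Mt2 was 6.02-fold higher in D16 and Gpx3 25.1-fold higher in D351. Mt1 and Sod2 fell short of 2-fold (1.93 and 1.77), Gpx4 passed it (2.23-fold higher in D351), and Sod1 and Cat changed sign (0.15 and 0.46), Cat because its other probe set then became the brighter. The D351-high share of all genes past 2-fold was 54.5% in the main setting and 82.9% with these controls, and the median over all genes went from -0.03 to 0.34. Sod2 also fell just short of 2-fold (1.999-fold) with 16 added to every value.

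**Figure D3:**
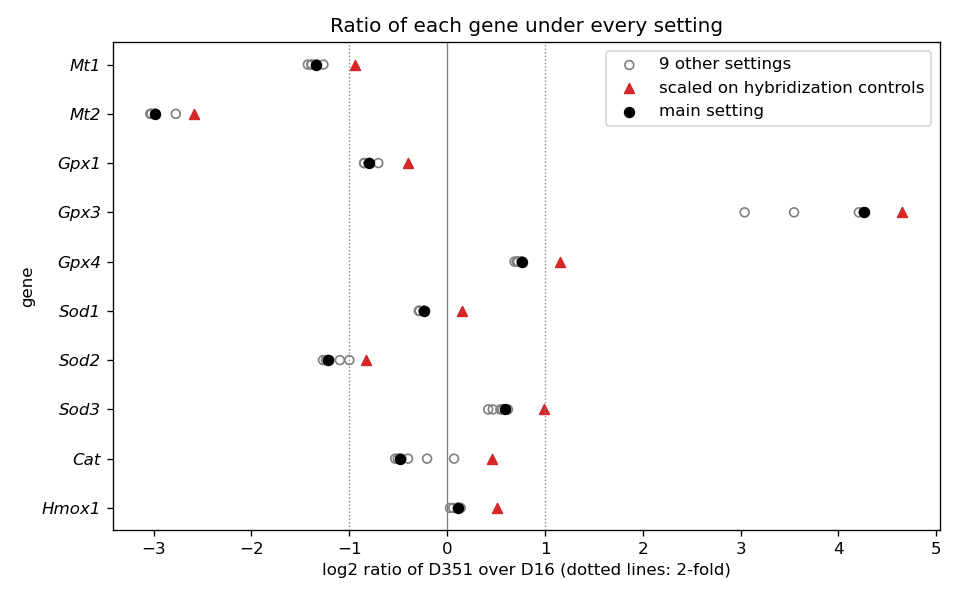
Log2 ratio of D351 over D16 of each gene in the main setting (black), when hybridization controls set the scale (red triangles) and in 9 other settings (open circles), with 2-fold as dotted lines. Mt2 stays between -3.03 and -2.59 and Gpx3 between 3.04 and 4.65, while Sod1 and Cat have points on both sides of 0.

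The list around glutathione, the substrate of the peroxidases, had 1 D351-high and 1 D16-high member among 12 measured. That is 16.7% past 2-fold against 19.4% of all genes. The list also holds genes that neither make nor recycle glutathione, such as Ggh. The median log2 ratio was -0.28. Slc3a2, the heavy chain of amino acid transporters including the cystine importer, measured 1313 in D16 and 589 in D351, 2.23-fold higher in D16. Ggh, a gamma-glutamyl hydrolase of folates, measured 26.8 and 60.6, 2.26-fold higher in D351.

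Of 16 thioredoxin, peroxiredoxin and glutaredoxin genes, 3 were D351-high and 1 was D16-high, and the median log2 ratio was -0.08. Txnip, the inhibitor of thioredoxin, measured 67.6 in D16 and 652 in D351, but by a probe set that can match other transcripts, and its other probe set had the opposite sign (-0.73). Nxn, nucleoredoxin, did not reach the floor in D16 and measured 67.9 in D351, a difference of at least 3.90-fold. Prdx4, the peroxiredoxin of the endoplasmic reticulum, was 2.01-fold higher in D351, at the edge of the threshold. With the values as deposited, the list had 2 D351-high genes. Srxn1, sulfiredoxin, which repairs peroxiredoxins, measured 128 in D16 and 57.6 in D351, 2.22-fold apart. A second probe set of Srxn1 was within 2-fold, with a log2 ratio of -0.58. With the mean of probe sets, the list had 4 D351-high and 0 D16-high genes.

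The NRF2 list, which shares 5 of its fixed genes with the lists above, had 3 D351-high and 3 D16-high genes among 26 measured and a median log2 ratio of -0.07. The quinone reductase gene Nqo1 measured 60.3 in D16 and 19.0 in D351, near the floor, with a second probe set at a log2 ratio of -0.78. The pentose phosphate enzyme gene Taldo1 measured 374 in D16 and 129 in D351, 2.89-fold apart. Bach1, the repressor of Hmox1, measured 105 and 276, 2.63-fold higher in D351, beside the nearly level Hmox1. Its partner gene Mafg was 2.99-fold higher in D351 from a D16 level of 21.0, near the floor, while a second probe set had -0.18. Nfe2l2, which encodes NRF2, measured 283 in D16 and 187 in D351, within 2-fold, and Keap1, its inhibitor, was below the floor in both (both named after their values were seen).

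Among enzymes that make oxidants, 3 of 12 genes were D351-high and 0 were D16-high, and the median log2 ratio was 0.44. With the mean of probe sets, 1 gene of this list was D16-high. Cyba had a log2 ratio of -0.90 by its brightest probe set and -1.30 by another (named after its values were seen). Xanthine dehydrogenase, Xdh, measured 23.3 in D16 and 174 in D351, 7.46-fold higher from a level near the floor. The amine oxidase gene Aoc3 measured 49.0 and 203, 4.14-fold higher in D351. The sulfhydryl oxidase gene Qsox1, whose D16 level of 17.7 was at the edge of the floor, measured 414 in D351, with at least 0.54 for its other probe set.

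Other lists hold genes regulated by factors known to act on members of the set. Any part of these factors in the differences of the members was not tested. FOXO factors, known regulators of Sod2 and Cat, and their targets had 5 D351-high and 0 D16-high genes among 10 measured, and a median log2 ratio of 1.04. Over all measured genes, 10.6% were D351-high and 8.83% were D16-high. Pdk4, the kinase that shuts off pyruvate oxidation, did not reach the floor in D16 and measured 314 in D351, a difference of at least 18.0-fold. Ccng2, a cyclin of resting cells, measured 97.1 in D16 and 290 in D351, the autophagy gene Map1lc3b 232 and 649, and the stress gene Gadd45b 155 and 359. NF-kappaB genes and targets had 5 D351-high genes and 1 D16-high gene among 19, and a median of 0.63. The chemokine genes Ccl7 and Ccl2 measured 1159 and 1306 in D351, against 19.9, near the floor, and 134 in D16. The acute phase gene Saa3 measured 23.7, also near the floor, and 397. Ptgs2, the inducible cyclooxygenase gene, was the D16-high one, at 141 and 41.4. NF-kappaB is a known inducer of Sod2, and the activity of NF-kappaB was not measured. Glucocorticoids are known to induce metallothionein genes, and 2 of 12 genes of that list were D351-high, with a list median of 0.19. Sgk1, a kinase, was 2.76-fold higher there and the phosphatase gene Dusp1 2.06-fold, and 1 gene, the chaperone Fkbp5, was 2.05-fold higher in D16. With the values as deposited, only 1 gene of the glucocorticoid list was D351-high.

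**Figure D4:**
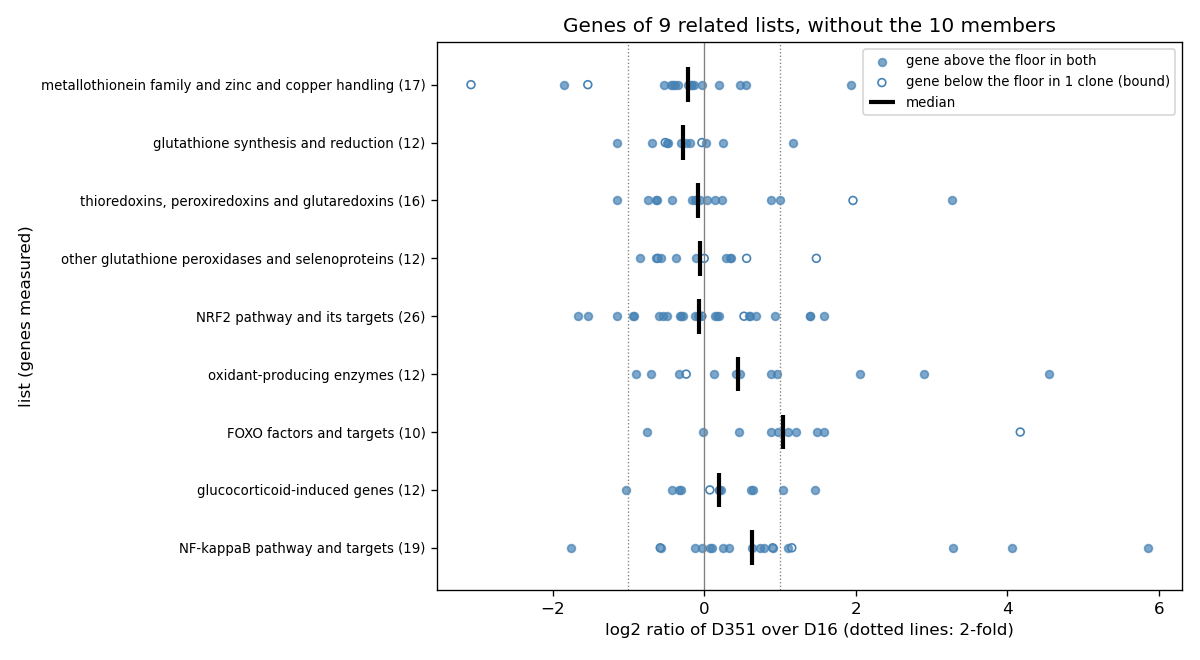
Log2 ratio of D351 over D16 of each measured gene (points; open where 1 clone was below the floor) in 9 lists fixed by name, without the 10 genes themselves, with the list median as a black bar and 2-fold as dotted lines. The medians run from -0.28 for glutathione synthesis to 1.04 for the FOXO list, and each list has genes on both sides of 0. The lists were chosen with earlier results of these arrays known.

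Together the 9 lists had 130 measured genes, of which 24 were D351-high and 9 D16-high. That is 25.4% past 2-fold, against 19.4% of all genes, of which 10.6% were D351-high and 8.83% D16-high. Since the lists were chosen with earlier results of these arrays known, nothing is read from this excess. The median log2 ratio of the list genes was 0.05, that of all genes -0.03. The medians of the 5 lists below 0 turned positive, from 0.08 to 0.31, when hybridization controls set the scale.

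With 2 arrays, the pattern of a gene is a single ratio, so likeness was measured as the nearest log2 ratio among the 5202 genes. Nearest to Mt2 (-2.98) were D17H6S56E-5 (-2.88), the haem synthesis gene Alad (-2.88) and the transcription factor gene Klf5 (-2.84). Nearest to Gpx3 (4.26) were Saa3, Sfrp1 and Rspo2 (4.07, 4.07 and 4.06), whose D16 levels of 19.0 to 23.7 were also near the floor. Mt1 had Tyms-ps, Tspan9 and Vars as its nearest (-1.34 each), and Sod2 had Sinhcaf, Urod and Iscu (-1.22 each).

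The clones also differed in marker genes. Of the mesoangioblast markers, Cd34 was at 475 in D16 and below the floor in D351, and Kit, Kdr and Itga4 were below the floor in both. Thy1 (1534 and 1041), Pdgfra (762 and 714) and Acta2 (939 and 1686) were far above the floor in both by their brightest probe sets. A second probe set of Pdgfra measured 54.4 in D16 and 18.7, near the floor, in D351 (log2 ratio -1.54). Pdgfrb measured 54.3 and 197, Cd44 36.6 and 47.7, and Alpl was at the edge of the floor. The summed level of 11 cell division genes was 5410 in D16 and 1869 in D351, and 8 of the 11 were D16-high, the direction of Mt1, Mt2 and Sod2. Among 12 embryonic fibroblast genes, which the feeder cells could also carry, 6 were D351-high, the direction of Gpx3, and 1 was D16-high, with summed levels of 7477 and 12229. Of the D351-high genes, Col1a2 was at the edge of the threshold (2.03-fold), and another probe set had the opposite sign (-0.62). Another probe set of Col1a1 was within 2-fold (log2 ratio 0.42). Other probe sets of Col3a1 (1.55 and 1.26) and Ogn (1.94) were also past 2-fold in that direction. The part of growth state or of feeder cells in the results was not tested.

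Markers of other cell types were also counted. All 8 liver and visceral endoderm genes on the array were below the floor in both clones, with summed levels of 49.7 and 51.7. Of 7 erythroid genes, 4 were measured and the highest level of any was 33.2, with sums of 133 and 85.2. Of 10 white blood cell genes, 5 were measured, with sums of 185 and 245. Cd14, a receptor for bacterial lipopolysaccharide, was the brightest, at 70.1 in D16 and 129 in D351. The macrophage gene Cd68 did not reach the floor in D16 and measured 36.9 in D351, a difference of at least 2.12-fold, by a probe set that can match other transcripts. Ptprc and Adgre1, which define white blood cells and macrophages, did not reach the floor in either clone. Of 7 endothelial genes, 2 were measured, with sums of 73.0 and 105. Flt1, a receptor for VEGF, did not reach the floor in D16 and measured 66.2 in D351, a difference of at least 3.80-fold, and its second probe set gave a log2 ratio of at least 1.46. Pecam1 measured 30.8 and 20.3, while Cdh5, Tek and Vwf did not reach the floor in either clone. The part of such cells in the results was not tested.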

How the data were processed

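Total RNA of each clone was measured on 1 array. The values deposited by the authors are linear intensity values, 1 for each probe set. The software, scaling and background correction behind them were not given in the sources used here. The deposited 2% trimmed means were both 100.1, so the columns appear scaled to one target. Probe sets were named through the platform annotation, with symbols updated by Entrez number to RefSeq (GRCm38.p6): of 12422 non-control probe sets, 10833 had 1 symbol, 396 several and 1193 none, and only the first kind was used. The annotation table belongs to 1 version of this array. Which version was hybridized is not given in the labels and was not checked, so the gene names rest on the table fitting it. Arrays were scaled to one median log2 level (factors 0.983 and 1.02). Non-control values were pooled after scaling and their 40th percentile was taken as the floor. Lower values were set to it before log2 ratios were taken, so a gene below it in 1 clone has a bound, written as at least N-fold. Where a gene had several probe sets, the brightest on average stood for it.

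Differences were counted at 2-fold. The members and lists were chosen with earlier results of these data known. Besides the members, the rule named up to 4 genes past 2-fold per list with the largest ratio, the 3 genes nearest in ratio to each member past 2-fold, and the mesoangioblast markers. The functions were tested on simulated data. Alternatives covered scaling, floor, probe set rule and size threshold. Python 3.11.15, numpy 2.4.6, pandas 2.3.3, scipy 1.17.1, statsmodels 0.14.6 and matplotlib 3.10.9 were used. The number of arrays limits the precision.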

Additional observations from a re-analysis of the deposited data

How the results depend on the processing

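No paired analysis was possible because there is 1 array for each clone, and no replicate could be left out. Of 100 member ratios under 10 alternatives, 96 moved by less than the probe set SD and 0 of the genes past 2-fold reversed. Many of the 96 could not move by that much, so their number does not measure robustness. A lower floor or none changed no member, and the probe set rules could change only Cat. Scaling on hybridization controls shifted ratios by 0.39, below the SD of 0.52, yet it took Mt1 and Sod2 below 2-fold. The 4 that moved more were Gpx3 with the higher floor (3.04) and with a pseudocount (3.55), and Cat scaled on hybridization controls (0.46) and by its other probe set (0.07); the first scaling also made that other probe set of Cat the brighter.

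Scaling on hybridization controls gave 2 D351-high members and 1 D16-high member, a member median of 0.31, 1214 and 250 of all genes, and 37 list genes higher in D351. Over all genes, the floor at the 25th percentile gave 852 higher in D16 (main setting 539), the floor at the 60th gave 406 and 325, and no floor gave 1159 and 1267, with 15 list genes higher in D16. At 1.5-fold, 3 members were higher in D351, as were 1287 of all genes and 39 list genes, against 1279 and 22 in D16. At 3-fold, 1 member was higher in D16, and the counts were 253 and 159 for all genes and 10 and 4 for list genes. A higher floor tests fewer genes. Of 306 values of single lists, 262 stayed close to the main value and 44 moved.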
